A study of Mus musculus with 16 samples.

Results

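The transcription factor p53 and 30 genes known as its direct targets were followed through 3 RNA-seq experiments on the loss of Cul4b in the mouse small intestine. The members were taken by gene symbol, and all 31 have a row in each of the 3 count tables, out of 52525 genes that the tables share. CUL4B is the scaffold of a cullin-RING ubiquitin ligase, and the study asked what the intestinal epithelium does without it. In the first experiment, crypts were taken from C57BL/6 mice with pVillin-Cre; Cul4b fn/Y (KO-IEC, 4 libraries) and from control mice with Cul4b fn/Y (WT, 4 libraries), where the villin promoter confines Cre to the intestinal epithelium. In the second, organoids were grown in Matrigel from mice of the KO-IEC genotype (2 libraries) and from WT mice (2 libraries). In the third, organoids from CAG-CreERT2; Cul4b fn/Y mice lost Cul4b through a Cre that is active in all cells only once hydroxytamoxifen is given (KO-CAG, 2 libraries), and were compared with their own WT organoids (2 libraries). All mice were on the C57BL/6 background, and ages are given only as a range for the study and not for each library. Whether the WT cultures of the KO-CAG experiment carried CreERT2 or received hydroxytamoxifen is not stated, so the loss of Cul4b, the active recombinase and the drug cannot be told apart there. The study's methods call the replicates biological, but the labels do not tie each library to an animal or culture, so the p-values below measure the spread between these libraries, which may be technical in part.

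p53 is held at low levels in unstressed cells because MDM2, itself the product of a p53 target gene, marks it for destruction. DNA damage, ribosomal stress or oncogene activity frees p53, which then binds pairs of short half-sites near its target genes and raises their transcription. In the intestine this programme is best known from irradiated crypts, where it stops the cell cycle and removes damaged stem and progenitor cells. The members were grouped by role into the factor itself (Trp53), 3 feedback genes, 5 arrest genes, 11 apoptosis genes, 4 repair genes and 7 genes of metabolism, redox balance and other functions.

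The p53 half-site motif was looked for on both strands in the RefSeq promoter windows of GRCm38.p6, each covering 250 bases before and 50 bases after an annotated start. A window was found for 24 of the 31 members. An exact p53 consensus half-site stood in at least 1 window of 10 members, and the 24 members have 35 windows between them. Of all 32851 windows 8.36% held one, which is a share of windows and not of genes. A full site was taken as 2 half-sites that keep the C and the G of the core, with a spacer of at most 13 bases and at most 2 mismatches. It stood in the windows of 4 members, beside 4.71% of all genes with a window. These 4 are shown because they are the p53 sites that could be read from the reference, with the half-sites in capitals. The Cdkn1a site lies at chr17:29090923-29090952 on the + strand and begins 51 bases before the start of a RefSeq transcript, and the Ccng1 site lies at chr11:40755457-40755486 on the - strand, 195 bases before the start. The Bax site lies at chr7:45467079-45467099 on the - strand, 201 bases before the start, and the Sesn1 site at chr10:41887253-41887275 on the + strand, 186 bases before an internal start.
Cdkn1a: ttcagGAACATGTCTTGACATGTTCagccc
Ccng1: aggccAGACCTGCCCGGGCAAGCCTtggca
Bax: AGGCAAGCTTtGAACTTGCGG
Sesn1: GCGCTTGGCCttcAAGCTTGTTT
The Cdkn1a and Ccng1 half-sites abut and hold 1 mismatch, whereas those of Bax are 1 base apart and those of Sesn1 3 bases apart, with 2 mismatches each. The mismatch of Ccng1 lies inside the core of its left half-site, between the C and the G. A match of letters is a description of the sequence and not of binding, which was not measured here.

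The libraries held 7348191 to 16881395 counts, so that 3 counts correspond to 0.178 to 0.408 CPM, counts scaled to the size of the library. Levels below are CPM further scaled by edgeR's trimmed mean of M values (TMM), except those of mitochondrial ribosomal RNA, which are scaled to library size only. Effects are log2 fold changes of KO over WT, with standard errors (SE) from edgeR's quasi-likelihood test. A gene was called when its p, adjusted by Benjamini-Hochberg over all genes tested in that experiment, was under 0.05. Cul4b itself was at 31.7 to 38.3 CPM in WT crypts and at 0.848 to 2.21 CPM in KO-IEC crypts, and at 1.69 to 5.19 CPM in the KO organoids of both models against 70.1 to 83.2 CPM in their WT organoids. The epithelial markers Epcam, Vil1, Cdh1, Krt8, Krt18, Cdx1 and Cdx2 summed to between 5540 and 9740 CPM in all libraries. The crypt libraries differed in mitochondrial ribosomal RNA (mt-rRNA, from mt-Rnr1 and mt-Rnr2), at 18.9 to 25.3 CPM in WT1 and KO1 to KO3, 834 to 1078 CPM in WT4 and KO4, and 2840 to 2873 CPM in WT2 and WT3. The high class thus holds WT libraries only, and there class and genotype cannot be told apart.

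The p53 targets were higher in KO-CAG organoids, with calls in each group of targets. Of the 31 members, 26 were called higher and 0 lower, where 18.1% of the 13598 genes tested were called higher and 13.4% lower, and 16 members were called with at least a 2-fold increase, beside 6.36% of all genes. In KO-IEC crypts 29 members could be tested, and 2 were called higher (4.30% of 13427 genes) and 1 lower (2.66%). In KO-IEC organoids none of the 31 members was called, and 1 of 13938 genes (0.00717%) was. The median log2 fold change of the members was 1.01 in KO-CAG organoids, 0.17 in crypts and -0.05 in KO-IEC organoids, against medians over all genes of 0.0012, -0.01 and -0.01. Eda2r and Ak1, with at most 46 and 9 counts per crypt library, were under the low-count filter in crypts, where they fell to 2 and 1 counts, and Ak1 held 1 count in KO-IEC organoid replicate 2 as well. The direction was positive for 29 of the 31 members in KO-CAG organoids, for 20 of 29 in crypts and for 14 of 31 in KO-IEC organoids.

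**Figure D1:**
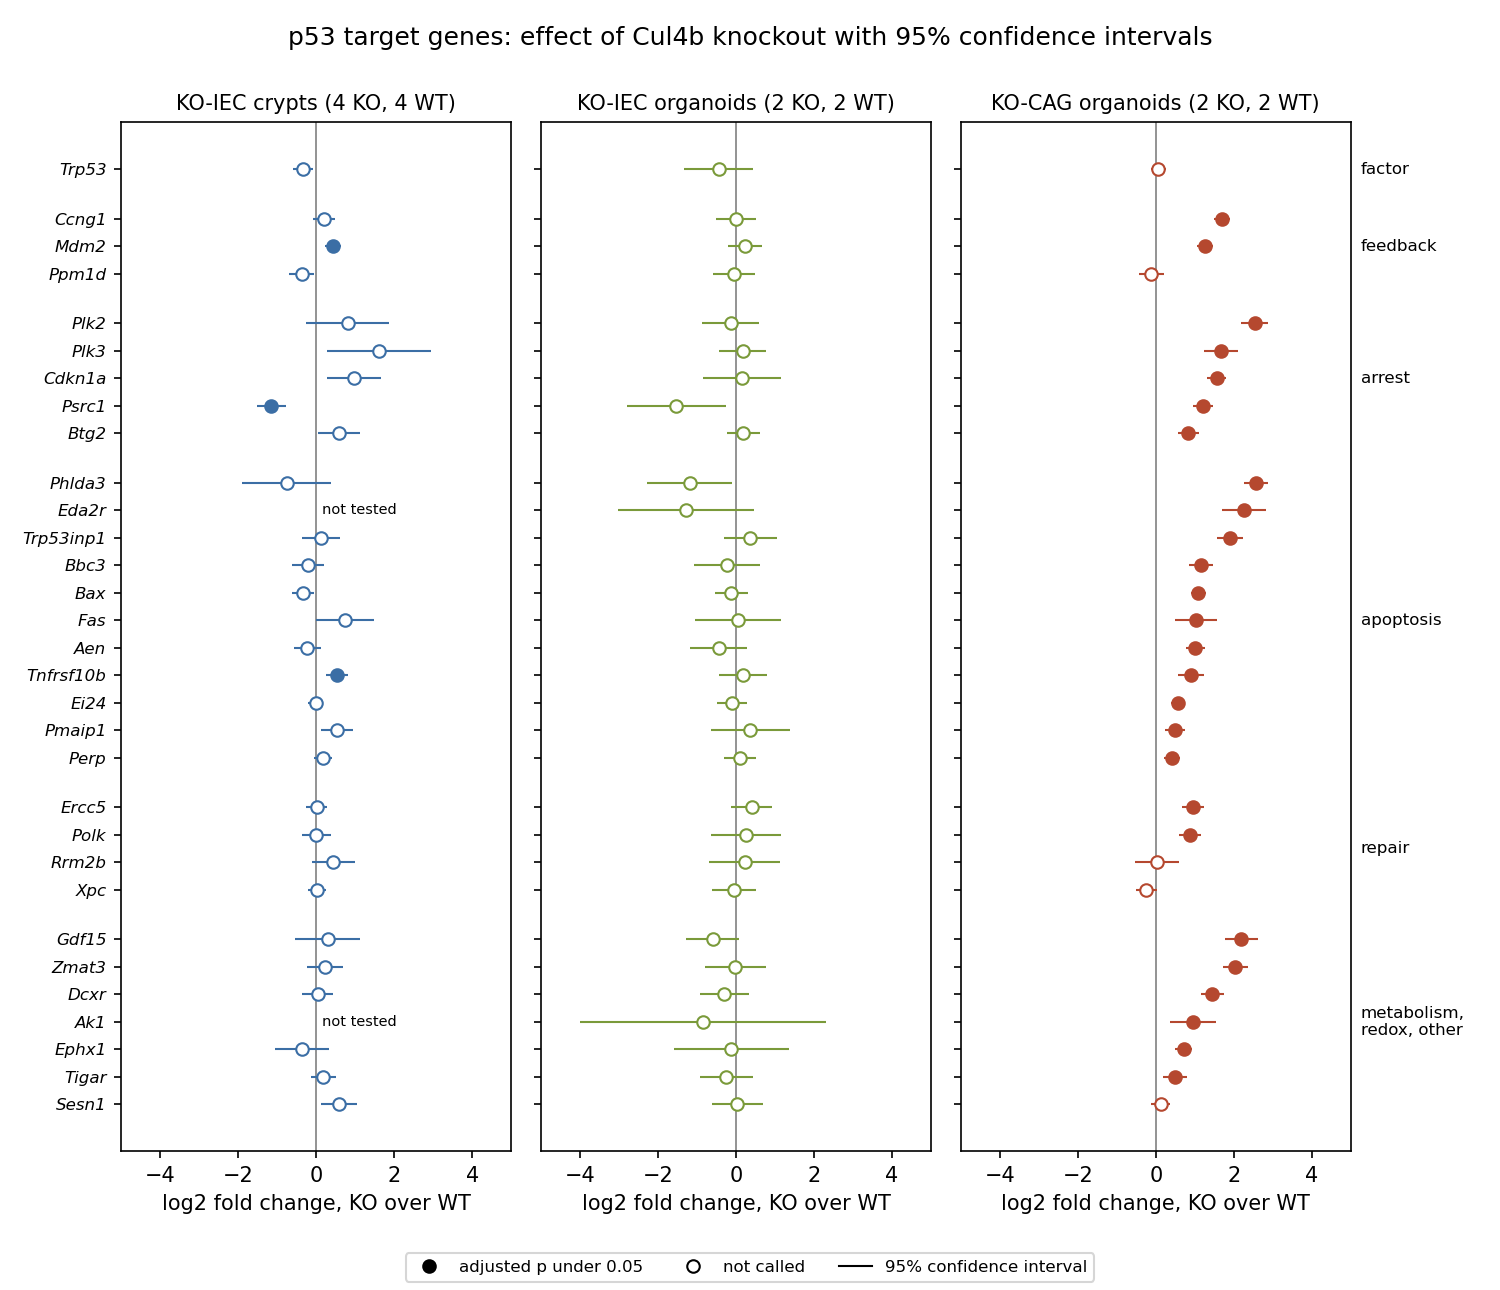
Log2 fold change of KO over WT for each of the 31 members, ordered by role, in the 3 experiments. Points are edgeR estimates with 95% confidence intervals, filled where adjusted p was under 0.05. 26 members are filled in KO-CAG organoids, 3 in crypts and 0 in KO-IEC organoids.

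Trp53 itself was not called in KO-CAG organoids. It stood at 156 and 154 CPM in the WT libraries and at 154 and 170.3 CPM in the KO-CAG libraries, a log2 fold change of 0.07 (95% interval -0.12 to 0.25, adjusted p = 0.584, edgeR). The groups overlapped. p53 is controlled largely through the stability of its protein, which these data do not measure.

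Among the feedback genes, Mdm2 and Ccng1 rose in KO-CAG organoids and Ppm1d was not called. Mdm2, at chr10:117688875-117710758 on the - strand, was at 47.1 and 52.5 CPM in WT and at 119.4 and 119.5 CPM in KO-CAG organoids. Its log2 fold change was 1.26 (SE 0.09, adjusted p = 1.19e-05). Ccng1 encodes cyclin G1, which brings a phosphatase to MDM2, and its abutting half-sites are printed above. It was at 104 and 113 CPM in WT and at 369 and 337 CPM in KO-CAG organoids, a log2 fold change of 1.70 (SE 0.09, adjusted p = 4.22e-06). Both KO-CAG libraries were above both WT libraries for each of these genes. Ppm1d, a phosphatase that switches off p53 and the checkpoint kinases, was at 25.5 and 24.2 CPM in WT and at 20.6 and 25.2 CPM in KO-CAG organoids (log2 fold change -0.11, 95% interval -0.43 to 0.21, adjusted p = 0.587), and its groups overlapped.

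All 5 arrest genes rose in KO-CAG organoids, and their summed level went from 233 to 253 CPM in WT to 599 to 723 CPM. Cdkn1a encodes the CDK inhibitor p21, the best known arrest gene of the pathway, and lies at chr17:29090979-29100722 on the + strand in the table of this experiment. It was at 112.5 and 126 CPM in WT and at 386 and 321 CPM in KO-CAG organoids, a log2 fold change of 1.57 (SE 0.11, adjusted p = 1.05e-05). Plk2, a polo-like kinase of the stress response, had the steepest change of the arrest genes. It was at 13.01 and 18.9 CPM in WT and at 99.5 and 85.8 CPM in KO-CAG organoids, a log2 fold change of 2.54 (SE 0.15, adjusted p = 6.05e-06). Its relative Plk3 was at 5.54 and 6.87 CPM in WT and at 21.8 and 17.98 CPM in KO-CAG organoids (log2 fold change 1.67, SE 0.20, adjusted p = 0.000233). Psrc1 encodes a microtubule protein of the mitotic spindle that p53 can control. It was at 24.6 and 23.6 CPM in WT and at 59.1 and 53.1 CPM in KO-CAG organoids, a log2 fold change of 1.21 (SE 0.11, adjusted p = 5.67e-05). Btg2, an antiproliferative factor that promotes mRNA decay, was at 77.1 and 77.7 CPM in WT and at 157 and 121 CPM in KO-CAG organoids (log2 fold change 0.84, SE 0.12, adjusted p = 0.000594). For none of the 5 arrest genes did the groups overlap. Of the merged exons in GENCODE M21, 7.68% in Cdkn1a and 3.32% in Plk3 overlap a gene on the other strand (AC167363.2 and Tctex1d4), and whether reads were assigned by strand is not given in the sources used here.

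All 11 apoptosis genes rose in KO-CAG organoids as well, from a summed 460 to 480 CPM in WT to 870 to 954 CPM. The mitochondrial branch was represented by Bax, which forms pores in the outer membrane, and by Bbc3 (PUMA) and Pmaip1 (NOXA), which unleash it. Bax was at 74.45 and 74.50 CPM in WT and at 166 and 152 CPM in KO-CAG organoids, a log2 fold change of 1.09 (SE 0.08, adjusted p = 1.96e-05), and 12.2% of its exonic bases are shared with Gm45808 on the same strand. Bbc3 was at 20.8 and 17.9 CPM in WT and at 47.0 and 39.4 CPM in KO-CAG organoids (log2 fold change 1.15, SE 0.14). Pmaip1 was at 39.99 and 34.7 CPM in WT and at 55.7 and 49.0 CPM in KO-CAG organoids (log2 fold change 0.48, SE 0.12), the smallest value of this branch. The death receptors form another branch. Fas was at 4.46 and 6.09 CPM in WT and at 11.96 and 9.71 CPM in KO-CAG organoids (log2 fold change 1.03, SE 0.24), and Tnfrsf10b, the mouse TRAIL receptor, was at 16.9 and 19.8 CPM in WT and at 37.95 and 30.96 CPM in KO-CAG organoids (0.90, SE 0.15). Eda2r, a further receptor of the TNF family, was at 3.49 and 6.35 CPM in WT and at 20.4 and 26.25 CPM in KO-CAG organoids (2.26, SE 0.25). For each of the 3 receptors both KO-CAG libraries were above both WT libraries.

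Phlda3, a repressor of the survival kinase AKT, had the largest log2 fold change of all 31 members in KO-CAG organoids. It was at 12.05 and 11.8 CPM in WT and at 78.7 and 63.4 CPM in KO-CAG organoids, 2.57 on the log2 scale (SE 0.14, adjusted p = 4.22e-06). Trp53inp1, a stress protein that acts with p53, was at 24.2 and 34.3 CPM in WT and at 119 and 100.2 CPM in KO-CAG organoids (log2 fold change 1.91, SE 0.15). Aen is an exonuclease that cuts DNA in dying cells. It was at 43.85 and 53.9 CPM in WT and at 96.6 and 100.4 CPM in KO-CAG organoids (log2 fold change 1.01, SE 0.11). Ei24 and Perp encode membrane proteins with wider roles. Ei24, of the endoplasmic reticulum, was at 104 and 105.5 CPM in WT and at 156 and 154 CPM in KO-CAG organoids (0.57, SE 0.08). Perp, a component of desmosomes, was at 116 and 115 CPM in WT and at 164 and 144 CPM in KO-CAG organoids (0.41, SE 0.09). The adjusted p of the 11 apoptosis genes was between 4.22e-06 and 0.0107, and no group overlapped.

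The repair genes were split. Polk, a translesion DNA polymerase, was at 17.95 and 18.01 CPM in WT and at 31.6 and 34.0 CPM in KO-CAG organoids (log2 fold change 0.87, SE 0.13, adjusted p = 0.000777). Ercc5, the nuclease XPG of nucleotide excision repair, was at 20.1 and 23.3 CPM in WT and at 44.2 and 40.4 CPM in KO-CAG organoids (0.96, SE 0.13, adjusted p = 0.00041). Xpc, which recognises the damage in the same repair pathway, was the sole member with both KO-CAG libraries below both WT libraries. It was at 29.0 and 30.45 CPM in WT and at 23.6 and 26.5 CPM in KO-CAG organoids, but its log2 fold change of -0.24 was not called (95% interval -0.52 to 0.04, adjusted p = 0.175). Rrm2b, the p53-induced subunit of ribonucleotide reductase, was at 5.30 and 7.26 CPM in WT and at 6.81 and 6.06 CPM in KO-CAG organoids, with overlapping groups and a log2 fold change of 0.03 (95% interval -0.53 to 0.60).

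Of the 7 genes of metabolism, redox balance and other functions, 6 rose in KO-CAG organoids. Gdf15, a secreted stress cytokine, was at 7.11 and 6.61 CPM in WT and at 36.3 and 27.2 CPM in KO-CAG organoids, a log2 fold change of 2.20 (SE 0.19, adjusted p = 4.1e-05). Zmat3, an RNA-binding zinc finger protein, was at 28.55 and 23.8 CPM in WT and at 124 and 93.5 CPM in KO-CAG organoids (2.04, SE 0.15, adjusted p = 1.45e-05). These were 4.58-fold and 4.12-fold increases. Dcxr, a carbonyl reductase, was at 20.4 and 18.3 CPM in WT and at 58.4 and 47.9 CPM in KO-CAG organoids (1.45, SE 0.14, adjusted p = 5.97e-05). Ak1, an adenylate kinase and the member with the lowest counts, was at 3.13 and 3.37 CPM in WT and at 6.12 and 6.44 CPM in KO-CAG organoids (0.95, SE 0.26, adjusted p = 0.0205). Ephx1, the microsomal epoxide hydrolase, was at 134 and 130.3 CPM in WT and at 234 and 199 CPM in KO-CAG organoids (0.71, SE 0.10, adjusted p = 0.00046). Tigar, which lowers glycolytic flux, changed least among those called. It was at 17.7 and 16.6 CPM in WT and at 24.2 and 24.4 CPM in KO-CAG organoids (0.50, SE 0.14, adjusted p = 0.0191). Sesn1, a sestrin that restrains mTORC1, was at 38.3 and 41.6 CPM in WT and at 45.7 and 41.7 CPM in KO-CAG organoids. It was not called (0.13, 95% interval -0.11 to 0.37, adjusted p = 0.396, edgeR). The full-site match printed above for Sesn1 lies before an internal start, and binding there was not measured.

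**Figure D2:**
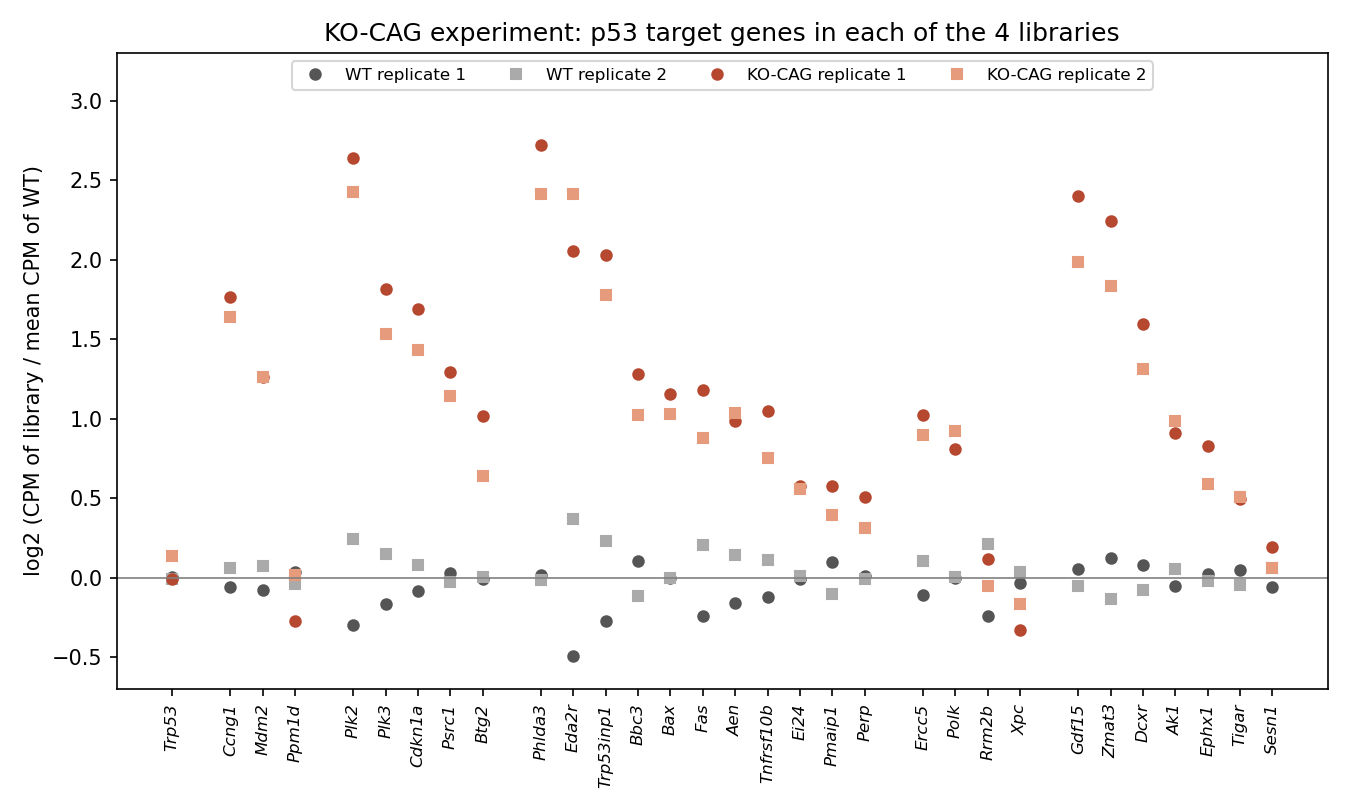
Level of each member in the 4 libraries of the KO-CAG experiment, as the log2 ratio of its CPM to the mean CPM of the 2 WT libraries, ordered by role. Both KO-CAG points lie above both WT points for 27 of the 31 members and below them for Xpc.

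Both KO-CAG libraries carried the difference. The median member lay 1.04 log2 units above the WT mean in KO-CAG replicate 1, with 28 of 31 members above it, and 0.94 in replicate 2, with 29 of 31. Both KO libraries were above both WT libraries for 27 members, where this held for 35.5% of all genes, and below for 1 member, where it held for 34.2%. With 2 libraries against 2, the exact two-sided permutation test of a single gene cannot go below p = 0.333. With 1 library left out, the median log2 fold change of the members was 0.86 to 1.06. Fitting all 16 libraries of the 3 experiments together left 15 members called, beside 3.06% of 15585 genes in either direction. Cdkn1a was not among these 15 (log2 fold change 1.56, adjusted p = 0.0698 in edgeR). Markers of mature cells moved with the KO-CAG genotype too. The 10 enterocyte markers summed to 5140 to 5500 CPM in WT and 11600 to 14700 CPM in KO-CAG organoids (9 of 10 called higher), the 6 enteroendocrine markers to 710 to 735 and 1610 to 1740 CPM (6 of 6 higher), the 7 goblet markers to 5160 to 5380 and 8240 to 8870 CPM (7 of 7 higher), and the 6 Paneth markers to 4930 to 5360 and 8210 to 8780 CPM (5 of 6 higher). The 6 stem cell markers summed to 4400 to 5030 CPM in WT and 3490 to 4030 CPM in KO-CAG organoids (3 of 6 lower). The part of these cell types in the p53 target result was not tested, and in bulk RNA fewer cells of a type and less RNA per cell cannot be told apart. The 8 lymphocyte markers summed to at most 0.769 CPM in this experiment, with Cd3d, Cd8a, Cd7, Gzma and Gzmb at 0.

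In KO-IEC crypts 2 targets were higher and 1 was lower. Mdm2 was at 40.4, 39.6, 36.1 and 41.6 CPM in the 4 WT libraries and at 50.3, 52.4, 58.2 and 51.6 CPM in the 4 KO-IEC libraries. The groups did not overlap, and its log2 fold change was 0.43 (SE 0.09, adjusted p = 0.0407, edgeR), a 1.35-fold difference. Tnfrsf10b, at chr14:69767472-69784411 on the + strand, was at 9.40, 8.86, 8.31 and 9.49 CPM in WT and at 14.2, 13.5, 11.7 and 12.8 CPM in KO-IEC crypts, again without overlap (log2 fold change 0.53, SE 0.13, adjusted p = 0.046). Psrc1, at chr3:108383839-108388231 on the + strand, was lower. It was at 10.9, 9.80, 11.03 and 10.6 CPM in WT and at 4.86, 5.04, 3.61 and 5.51 CPM in KO-IEC crypts, a log2 fold change of -1.15 (SE 0.17, adjusted p = 0.0247). These were the sole members whose groups did not overlap, 2 with KO above WT (8.70% of all genes) and 1 with KO below (8.79%). The exact two-sided permutation test gave p = 0.0286 for each of the 3, the smallest that 4 against 4 libraries allow. Every gene whose groups do not overlap has this p, so it only restates the lack of overlap.

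The 3 crypt calls depended on the set of libraries. No member was called without WT1, WT2, WT3, KO2 or KO3, where 20, 3, 11, 2 and 2 of all genes were called (0.147%, 0.0219%, 0.0808%, 0.0145% and 0.0146%). Of the members 2 were called without KO4 (3.75% of all genes), 5 without WT4 (13.6%) and 9 without KO1 (18%), while the log2 fold change of Mdm2 stayed between 0.39 and 0.45 where its call was lost in this way. With mt-rRNA class entered as a covariate 0 members were called, as were 2 of all genes (0.0149%), and the log2 fold changes were 0.37 for Mdm2, 0.46 for Tnfrsf10b and -1.14 for Psrc1. Without the 2 WT libraries of the high class 0 members were called, as was 1 of all genes (0.00715%), with values of 0.37, 0.46 and -1.18. Within the low class (1 WT and 3 KO libraries) and the middle class (1 and 1) the log2 differences were 0.41 and 0.31 for Mdm2, 0.47 and 0.42 for Tnfrsf10b, and -1.26 and -0.92 for Psrc1. For all 3 genes the KO and WT libraries did not overlap, so the sign was fixed in advance in each class and says nothing about class. No test was possible in the middle class.

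The other members of the list did not pass the test in crypts. Cdkn1a was at 85.9, 55.6, 46.5 and 109.9 CPM in WT and at 99.1, 127, 142 and 219 CPM in KO-IEC crypts. WT4 was above KO1, so the groups overlapped, and the log2 fold change was 0.98 (SE 0.31, adjusted p = 0.0712, edgeR). Its differences within the low and middle classes were 0.50 and 0.99, and without KO1 it was called (1.13, adjusted p = 0.0395). Trp53 mRNA was at 105.4, 108, 102 and 87.95 CPM in WT and at 95.1, 77.95, 74.8 and 72.8 CPM in KO-IEC crypts, a log2 fold change of -0.33 (95% interval -0.58 to -0.08, adjusted p = 0.0858). Here too 1 pair of libraries overlapped, WT4 below KO1. Plk3 had the largest value of the list, 1.62 (SE 0.59, adjusted p = 0.103), of which KO3 at 56.7 CPM stood apart from the other KO libraries at 8.09 to 13.5 CPM and the WT libraries at 4.02 to 10.1 CPM. In all, 12 of the 29 members tested had an unadjusted p under 0.05 in edgeR, as did 4287 of all 13427 genes, and of the 9 that were not called Btg2, Fas, Pmaip1 and Sesn1 lay between 0.53 and 0.74 while Bax and Ppm1d lay at -0.34 and -0.37. The 4 repair genes Xpc, Polk, Ercc5 and Rrm2b lay between 0.0025 and 0.44, and none was called.

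**Figure D3:**
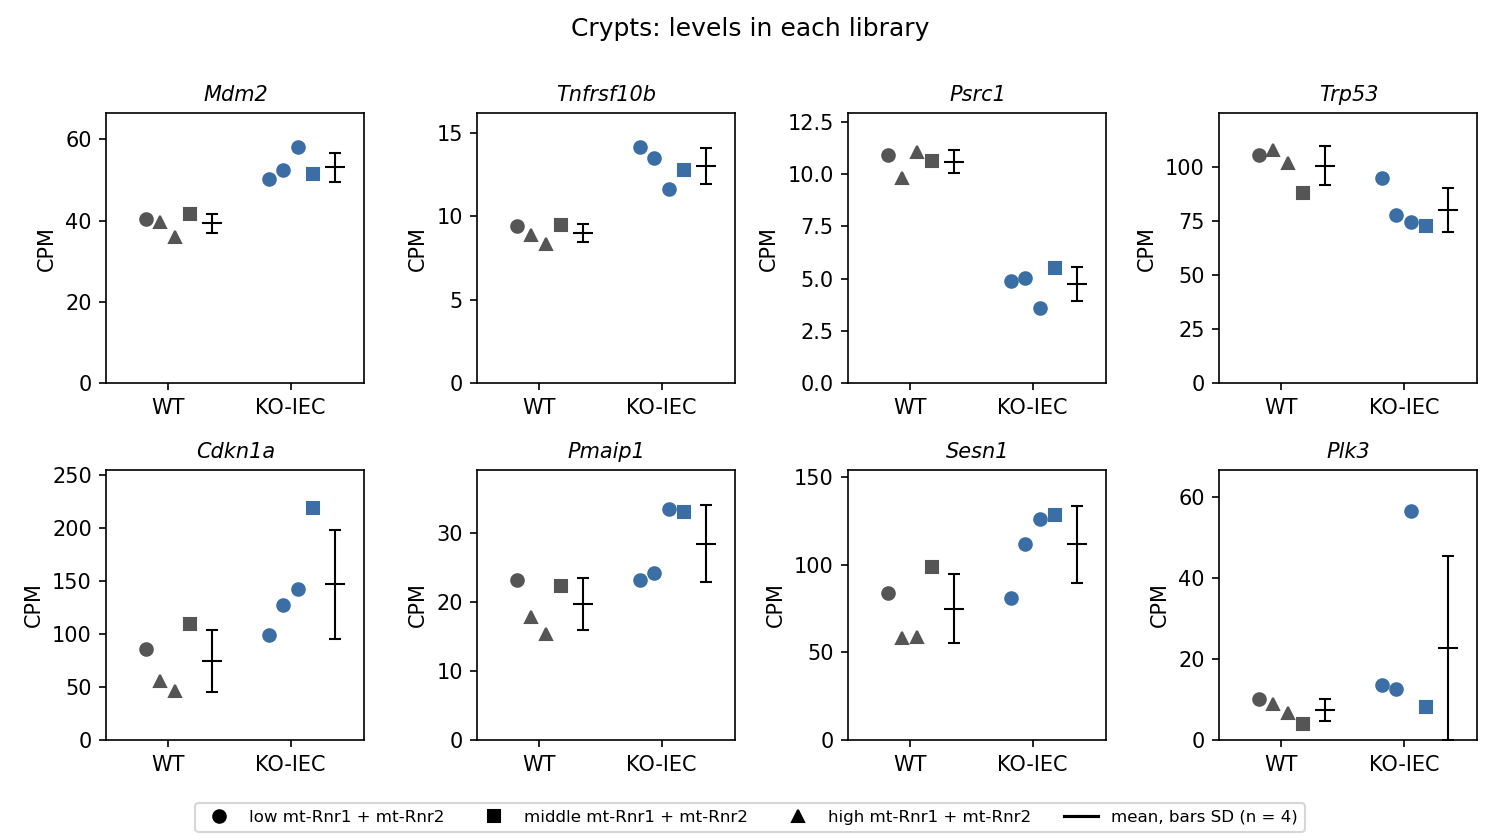
CPM of 8 members in each crypt library, with the group mean and SD (n = 4) beside the points. The marker shape gives each library's mt-rRNA class. WT and KO-IEC libraries do not overlap for Mdm2, Tnfrsf10b and Psrc1, and 1 KO library at 56.7 CPM sets the mean of Plk3.

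Marker sums of other cell types differed in part between the crypt groups. The 10 enterocyte markers summed to 2590 to 11300 CPM in WT and 10500 to 21000 CPM in KO-IEC crypts, all 10 with a positive log2 fold change and 0 called. The 8 lymphocyte markers summed to 22.9 to 119 CPM in WT and 56.2 to 394 CPM in KO-IEC crypts, all 8 positive and 0 called. KO1 and KO2 lay within the WT range for these. The 6 stem cell markers summed to 2010 to 3030 CPM in WT and 1310 to 2090 CPM in KO-IEC crypts, with 2 called lower (2.66% of all genes). The 6 Paneth markers summed to 10400 to 18800 and 2050 to 18100 CPM. The 6 myeloid markers summed to 15.5 to 18.8 and 9.01 to 11.4 CPM, and the 7 stromal markers to 5.95 to 8.72 and 1.48 to 5.42 CPM. Of these last 3 lists 0 were called, and only the myeloid and stromal sums did not overlap. The part of these cells in the levels of Mdm2, Tnfrsf10b and Psrc1 was not tested.

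In KO-IEC organoids, which share the genotype of the crypts, no member passed the test. Mdm2 was at 52.7 and 62.5 CPM in WT and at 66.0 and 68.5 CPM in KO-IEC organoids (log2 fold change 0.22, 95% interval -0.21 to 0.66, adjusted p = 0.856, edgeR). Cdkn1a was at 185 and 213 CPM in WT and at 141 and 306 CPM in KO-IEC organoids, so the WT libraries lay between the KO libraries. Its log2 fold change was 0.16 (95% interval -0.83 to 1.16). The table of this experiment gives Cdkn1a and Rrm2b longer gene models than the other 2 tables, 3553 against 2223 and 9134 against 6437 bases, so their counts cover unequal exons between experiments, and the part of this in the comparisons of effects was not tested. Trp53 was at 138 and 143 CPM in WT and at 138 and 69.3 CPM in KO-IEC organoids (-0.44, 95% interval -1.33 to 0.45), so 1 KO library was at the WT level and the other well below it. An unadjusted p under 0.05 in edgeR was seen for 2 members, Psrc1 and Phlda3, and for 650 of all 13938 genes. DESeq2 called 0 members as well, beside 0.198% of the genes given an adjusted p. Psrc1 was at 15.3 and 27.8 CPM in WT and at 10.1 and 4.79 CPM in KO-IEC organoids (-1.53, SE 0.49), and Phlda3 was at 13.2 and 27.0 CPM in WT and at 10.1 and 7.50 CPM in KO-IEC organoids (-1.19, SE 0.42). Both had an adjusted p of 0.856. KO libraries were above WT libraries for 4 members and below for 5, where each held for 19.4% of all genes. The replicates of this experiment were far apart, with a biological coefficient of variation of 0.28 against 0.0815 in the KO-CAG experiment and 0.231 in crypts. Without KO replicate 1 the log2 fold change was -1.02 for Trp53 and 0.615 for Cdkn1a. Without KO replicate 2 these were -0.02 and -0.50.

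The effects were then compared between experiments in 1 fit of all 16 libraries, in which the experiments share no libraries. The increase was larger in KO-CAG organoids than in KO-IEC crypts for 4 members, beside 0.372% of 15585 genes called in either direction. The difference of the log2 fold changes was 0.82 (SE 0.15, adjusted p = 0.0305, edgeR) for Mdm2, 1.49 (SE 0.21, adjusted p = 0.0103) for Ccng1, 2.36 (SE 0.38, adjusted p = 0.0203) for Psrc1 and 1.43 (SE 0.20, adjusted p = 0.0103) for Bax. Psrc1 was lower in KO-IEC crypts and higher in KO-CAG organoids, so its effects had opposite signs. Against KO-IEC organoids the increase was larger in KO-CAG organoids for 7 members, beside 0.385% of all genes. The 7 were the same 4 genes, with differences of 1.02 for Mdm2, 1.69 for Ccng1, 2.73 for Psrc1 and 1.19 for Bax, together with Phlda3 (3.74, SE 0.68), Dcxr (1.73, SE 0.33) and Gdf15 (2.78, SE 0.48), with adjusted p from 0.0133 to 0.0381. Cdkn1a was not called in either comparison, at 0.58 (SE 0.53) against crypts and 1.37 (SE 0.61, adjusted p = 0.442) against KO-IEC organoids. For Plk3 the difference from crypts was 0.05 with an SE of 0.86, so the data do not bound it closely. Leaving out any 1 of the 4 libraries of the KO-CAG experiment gave 0 calls in both comparisons, and the comparison with KO-IEC organoids also fell to 0 calls without their WT replicate 2 and to 1 without their KO replicate 2.

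**Figure D4:**
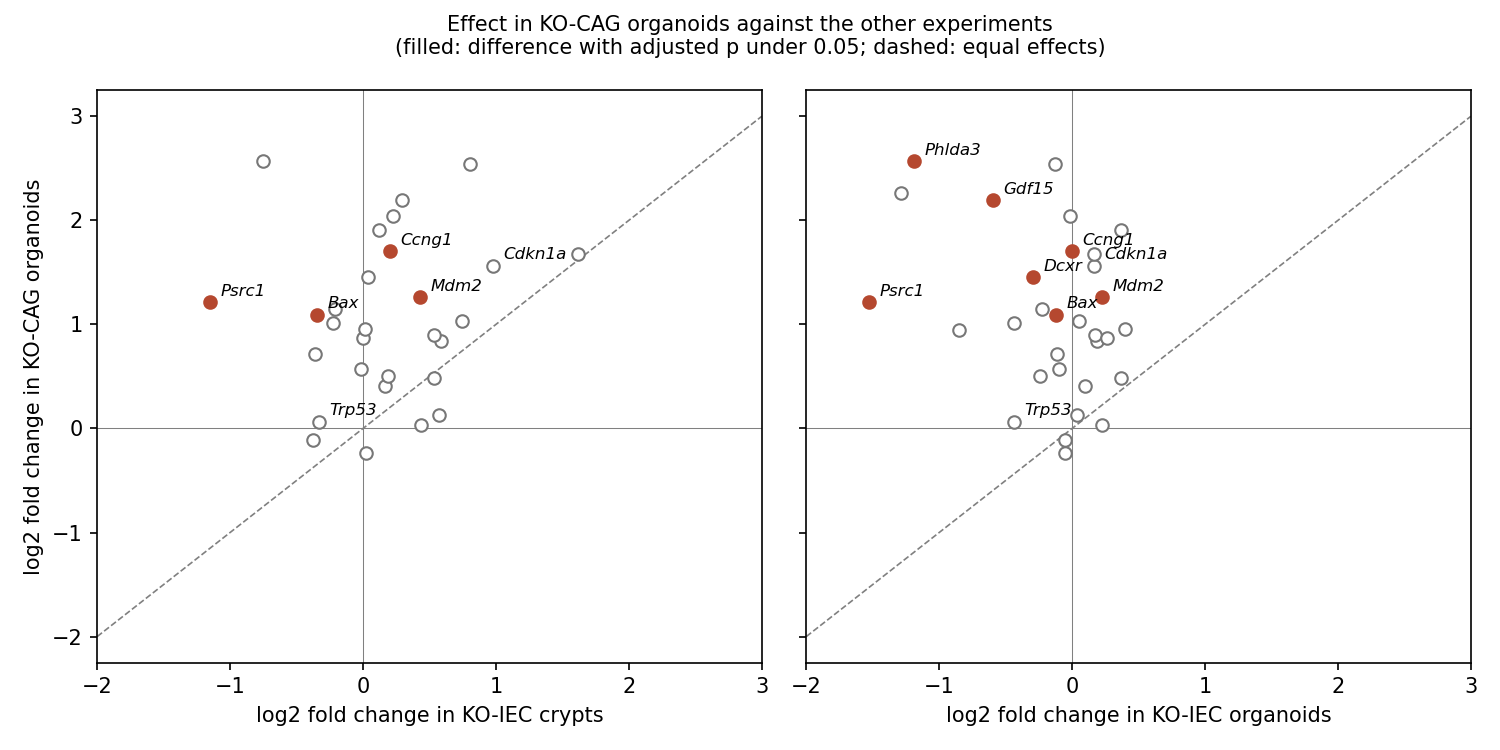
Log2 fold change of each member in KO-CAG organoids (vertical) against that in KO-IEC crypts (left, 29 members) or KO-IEC organoids (right, 31 members). Filled points are members whose difference between the experiments had an adjusted p under 0.05, 4 on the left and 7 on the right, and the dashed line marks equal effects.

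Per kilobase of exon the members covered a wide range of levels in WT epithelium. In WT crypts Perp was highest at 82.7 RPKM (reads scaled to exon length and library size), followed by Cdkn1a at 33.5, Bax at 30.5 and Trp53 at 24.9 RPKM, and Ak1 and Eda2r were lowest at 0.177 and 0.223 RPKM. In WT organoids Ephx1 led the list, at 122 RPKM in the KO-IEC experiment and 67.8 RPKM in the KO-CAG experiment, and Perp was next at 81.2 and 59.2 RPKM. Ephx1 stood at 9.90 RPKM in WT crypts. Since the experiments were prepared separately, levels set across them were not tested. The 5 members with the largest log2 fold changes in KO-CAG organoids, Phlda3, Plk2, Eda2r, Gdf15 and Zmat3, were at 7.65, 3.55, 0.835, 3.70 and 2.29 RPKM in the WT organoids of that experiment, which put them at ranks 16 to 31 of the 31 members. Cdkn1a and Ccng1 ranked 3 and 6 there, at 53.7 and 30.8 RPKM.

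Other genes of the pathway, not among the 31 members, were read from the same fits. Of 27 further p53 targets tested in KO-CAG organoids, 17 were called higher (18.1% of all genes) and 1 lower (13.4%), and their median was 0.50 on the log2 scale. The 5 largest were Ddit4l, an inhibitor of mTORC1 (3.60, SE 0.30), Cpt1c, a brain-type carnitine palmitoyltransferase (3.04, SE 0.36), the phosphatase gene Ptp4a3 (2.03, SE 0.12), the sestrin gene Sesn2 (1.88, SE 0.10) and the sulfatase gene Sulf2 (1.78, SE 0.10). The one called lower was Steap3 (-0.94, SE 0.23), an iron reductase. In crypts 1 of 23 was called higher (4.30% of all genes), Sulf2 at 1.37 (SE 0.26, adjusted p = 0.0397, edgeR). The 2 called lower (2.66%) were Ptp4a3 at -0.87 (SE 0.14) and Ckap2 at -0.54 (SE 0.12). Calls in crypts depended on the set of libraries, and 2 of all genes were called with mt-rRNA class as a covariate. Ptp4a3, like the member Psrc1, was thus lower in KO-IEC crypts and higher in KO-CAG organoids. In KO-IEC organoids 0 of 26 were called, with a median of -0.06.

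Of 24 regulators of p53 tested in KO-CAG organoids, 3 were called higher (18.1% of all genes) and 6 lower (13.4%), with a median of -0.08. The damage kinases Atr, Atm and Chek1 were lower by -0.65 (SE 0.12), -0.61 (SE 0.09) and -0.59 (SE 0.15) on the log2 scale, and Ppp1r13l and Rchy1, which encode inhibitors of p53, were higher by 0.62 (SE 0.18) and 0.47 (SE 0.10). Mdm4, the partner of MDM2, was at 202 to 204 CPM in WT and 206 to 208 CPM in KO-CAG organoids (0.03, SE 0.08). In crypts 1 of 24 was called higher (4.30% of all genes), the kinase gene Hipk2 at 1.04 (SE 0.21, adjusted p = 0.0401, edgeR). The limit given above for crypt calls applies to it too. In KO-IEC organoids 0 were called.

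Genes that p21 and the DREAM repressor complex silence went the other way from the targets in KO-CAG organoids. Their median was below 0 in crypts and KO-IEC organoids too, where the median of the members was 0.17 and -0.05. Of 22 such cell cycle genes, all had a negative log2 fold change in KO-CAG organoids and in crypts, and 21 of 22 in KO-IEC organoids, where 50.1%, 48.9% and 48.8% of all genes were positive. In KO-CAG organoids 9 were called lower (13.4% of all genes), led by the centromere genes Cenpa (-0.63, SE 0.10) and Cenpf (-0.59, SE 0.10), with a median of -0.36. In crypts 6 were called lower (2.66% of all genes), with a median of -0.53. Among them were the mitotic kinase gene Nek2 at -2.05 (SE 0.42) and Birc5, which encodes survivin, at -0.74 (SE 0.16). With mt-rRNA class as a covariate 2 of all crypt genes were called, so at most 2 of these 6 calls can hold there. In KO-IEC organoids 0 were called, with a median of -0.42, and the libraries disagreed, the list summing to 2050 and 1890 CPM in WT and to 2220 and 788 CPM in KO-IEC organoids. These genes mark cycling cells whatever drives them, and the part of cell type shares in their level was not tested.

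Lists of other stress genes were looked at beside these. Of 14 genes of the integrated stress response, 5 were called higher in KO-CAG organoids (18.1% of all genes), with Sesn2 (1.88) and Atf3 (1.41, SE 0.21) leading. Ddit4 was the 1 called lower (-0.38, SE 0.08), beside 13.4% of all genes. Sesn2 is also on the list of further p53 targets, so the lists are not separate from the p53 pathway. Of 11 immediate early genes tested in KO-CAG organoids, 8 were called higher (18.1% of all genes), with Fos at 1.41 (SE 0.16) and Nr4a1 at 1.14 (SE 0.28) at the top. In crypts the median of the 12 immediate early genes was 0.78 and 0 were called. They summed to 560 to 1170 CPM in the WT libraries, to 559, 1050 and 1180 CPM in KO4, KO1 and KO2, and to 3220 CPM in KO3, which stood apart for Plk3 as well. Neither list had a call in KO-IEC organoids.

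**Figure D5:**
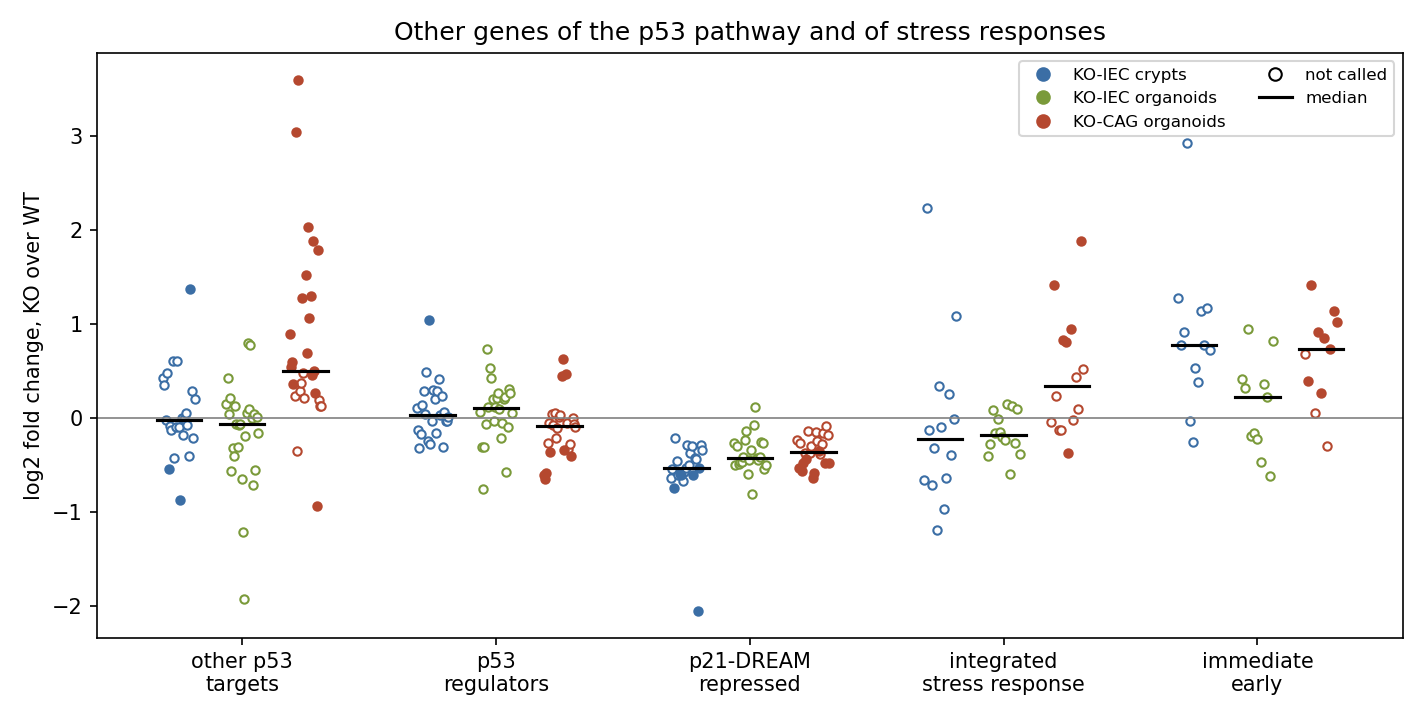
Log2 fold change of KO over WT for each tested gene of 5 further lists in the 3 experiments, filled where adjusted p was under 0.05, with the median of each list as a bar. The further p53 targets reach 3.60 in KO-CAG organoids, and the genes repressed through p21 and DREAM lie below 0 with 1 exception, in KO-IEC organoids.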

How the data were processed

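RNA was sequenced from 16 small-intestine libraries, 8 of crypts and 8 of organoids. Per the labels, the authors aligned reads with HISAT2 2.0.5 and counted them per gene with featureCounts 1.5.0-p3, and deposited raw counts in 1 table per experiment. The genome build and the use of strand are not given in the sources used here; 28 of the 31 members in the crypt and KO-CAG tables, and 29 in the KO-IEC organoid table, have the start and end of GENCODE M21 (GRCm38). The tables list 52636, 54532 (KO-IEC organoids) and 52636 genes, and 29 members have 1 gene model in all of them. From these counts, KO was compared with WT within each experiment by edgeR 4.0.16 in R 4.3.3 (filterByExpr, TMM, quasi-likelihood F test, Benjamini-Hochberg adjustment over all genes tested). SEs were derived from the F statistic, and intervals are at 95%. Differences between experiments were interaction terms in 1 fit of all 16 libraries and 6 groups. DESeq2 1.42.0 and limma 3.58.1 served as alternatives, with other normalizations, filters and left-out libraries. Log2 CPM used a prior count of 2. The procedure was tested on simulated counts. Total counts were 7348191 to 16881395, and intervals cover the spread between libraries only.

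The members and all gene lists were chosen with earlier results of these data known. Named with values in every library were Trp53, Cdkn1a, Mdm2 and every member called in an experiment or in a comparison of effects (members called in 1 experiment have these values there and are otherwise given by fold change or range); of other lists, up to 5 called genes with the largest change. Marker lists of tuft, B and plasma, myeloid and stromal cells were also summed, to at most 142, 25.2, 18.8 and 8.72 CPM in a library. No label ties the replicate numbers to a shared animal, litter or batch, and the correlations of same-numbered libraries were -0.0437, 0.19, -0.395 and 0.434 in crypts, and among organoids 0.342 (KO-IEC) and 0.0669 (KO-CAG), so the numbers were not used to pair samples.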

Additional observations from a re-analysis of the deposited data

Results flagged for a closer look

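In 58 groups of 4 crypt libraries (29 members in WT and in KO), 6 held 1 library apart from the other 3 by Dixon's criterion, which chance alone meets in about 1 in 20 groups. Plk3 in KO-IEC crypts was at 56.7 CPM in KO3 and Plk2 at 7.81 CPM in KO4, both above their group. Polk in KO3 (8.38 CPM) and Perp in KO1 (159 CPM) were below theirs, Ppm1d in KO1 (17.1 CPM) was above it, and Ephx1 in WT4 (33.9 CPM) was above the other WT crypts.

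The effect of the knockout differed between experiments, by the interaction test in edgeR, for the members described in the report. Between KO-CAG organoids and KO-IEC crypts the log2 difference was 0.82 for Mdm2, 1.49 for Ccng1, 2.36 for Psrc1 and 1.43 for Bax. Between KO-CAG and KO-IEC organoids it was 1.02 for Mdm2, 1.69 for Ccng1, 2.73 for Psrc1, 1.19 for Bax, 3.74 for Phlda3, 1.73 for Dcxr and 2.78 for Gdf15. The experiments differ in driver, in the timing of deletion and in preparation, which cannot be told apart, and no call was left in either comparison without any 1 library of the KO-CAG experiment.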

How the results depend on the processing

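The number of members called in crypts was 3 of 29, and became 6 by the DESeq2 Wald test, which called 19.7% of the genes given an adjusted p. It was 1 with a 2-fold minimum, and 0 with a replicate block (0.0298% of all genes) or with mt-rRNA class as a covariate (0.0149%). Without the libraries of the high class (chosen after seeing the data) it was 0 (0.00715%). With 1 library left out it was 0 to 9 (0.0145% to 18%). With no low-count filter the count stayed at 3 but the genes were Cdkn1a, Plk3 and Psrc1. In KO-IEC organoids (0) the count was 1 with no low-count filter and 0 to 5 with 1 library left out, and 0 with the replicate block. In KO-CAG organoids (26) it was 15 with all 16 libraries in 1 fit (3.06% of all genes) and 16 with the 2-fold minimum. It was 24 by DESeq2 (20.3%) and 26 with the replicate block (36.3%). With 1 library left out, the median log2 fold change of the members there was 0.86 to 1.06. Where an arm is left with 1 library, the fit takes it to vary like the other. This holds for every left-out library of the KO-IEC organoids. Their highest count came without KO replicate 1, where members were called about as often as all genes. The calls in that fit are thus not particular to the members. In KO-IEC organoids with no low-count filter 0.917% of all genes were called. The replicate block moved no call of a member outside crypts. The number of members whose effects differed between KO-CAG organoids and crypts was 4, and became 14 by limma voom, 8 without TMM and 0 to 12 with 1 library left out. Between KO-CAG and KO-IEC organoids it was 7, and became 8 by voom or without TMM and 0 to 11 with 1 library left out. The shares of all genes called in these alternative comparisons between experiments are not given here, so their counts cannot be set against all genes. The cause of these shifts was not tested. Among single members, 357 values stayed on their side of the threshold, 49 lost and 7 gained the call, and 2 that were not called with all libraries changed sign, both without KO replicate 2: Cdkn1a in KO-IEC organoids (0.16, and -0.50 to 0.615 with 1 library left out) and Trp53 in KO-CAG organoids (0.07, and -0.013 to 0.1157).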
